A study of Mus musculus with 3 samples.

Results

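Nuclear hormone receptors are transcription factors that carry a zinc-finger DNA-binding domain and, in most members, a pocket for a small lipophilic ligand. The receptors for thyroid hormone, retinoic acid, vitamin D, oxysterols and fatty acids bind DNA as heterodimers with a retinoid X receptor, whereas steroid receptors are held by chaperones and bind DNA as homodimers. The remaining members are called orphan receptors because they lack an agreed natural ligand. The 42 genes described here were chosen by gene name from the 55573 genes listed in the UMI-RNAseq table, and each name matched 1 row. They fall into 18 subfamilies and were sorted here into 9 ligand classes. All 42 are annotated as protein coding.

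The data came from 3 libraries of NIH3T3, an established line of mouse embryo fibroblasts, grown in medium with fetal bovine serum and without a named treatment or added ligand. The libraries share 1 condition, so no group was compared with another. The labels do not say whether they are separate cultures, so each SD may hold technical variation alone. In UMI-RNAseq, each molecule is tagged before amplification so that PCR copies can be removed, and the authors deposited the counts as FPKM, which scales the fragments of a gene by its length in kilobases and by the library total. Levels of different genes can be set side by side on this scale only with the limit that they depend on the gene length used, as given below. The libraries held 13959723 to 14423209 counted fragments.

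The label text mentions retina, so the cell type was checked first. Of 12 fibroblast genes, 10 had a mean FPKM of at least 1, led by Fn1, which encodes fibronectin, and the collagen gene Col1a2. Postn stayed below that limit and Lum was listed at 0. Of 12 retina genes, 0 reached a mean FPKM of 1, and their summed FPKM was between 0.943 and 1.61 per library. The receptor Nr2e3, which acts in photoreceptors, was also listed at 0 in every library.

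The receptor genes split into a detected group and a group below 1 FPKM. Of the 42 genes, 20 had a mean FPKM of at least 1, which is 47.6%. Among all 21903 protein-coding genes the share was 49.3%, and among all listed genes it was 23.2%, so the receptors were detected about as often as protein-coding genes as a whole. The same count of 20 genes passed the limit in each library. Among these 20 genes the median of the mean levels was 22.7 FPKM, beside 21.97 FPKM over the protein-coding genes past the same limit. The 42 genes together gave 765.8, 759.2 and 756.3 FPKM in libraries 1, 2 and 3, or 0.110% to 0.111% of all FPKM. In bulk RNA, fewer cells that express a gene and less RNA per cell cannot be told apart.

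The 2 groups were separated by a wide gap. The lowest gene above the limit was Nr6a1, with 6.66, 7.06 and 6.22 FPKM in libraries 1, 2 and 3, and the highest gene below it was Nr3c2, with 0.999, 0.806 and 0.909 FPKM. Nr6a1 lay 7.42-fold ± 1.16 (SD, n = 3) above Nr3c2, and no receptor fell between them. Above the gap, 5 genes had a mean of at least 50 FPKM, 12 lay between 10 and 50 FPKM and 3 lay between 1 and 10 FPKM. The 5 highest genes, Rarg, Vdr, Nr1h2, Nr3c1 and Thra, held 59.9% of the summed receptor FPKM. Each answers to a different ligand, namely retinoic acid, vitamin D, oxysterols, glucocorticoids and thyroid hormone.

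**Figure D1:**
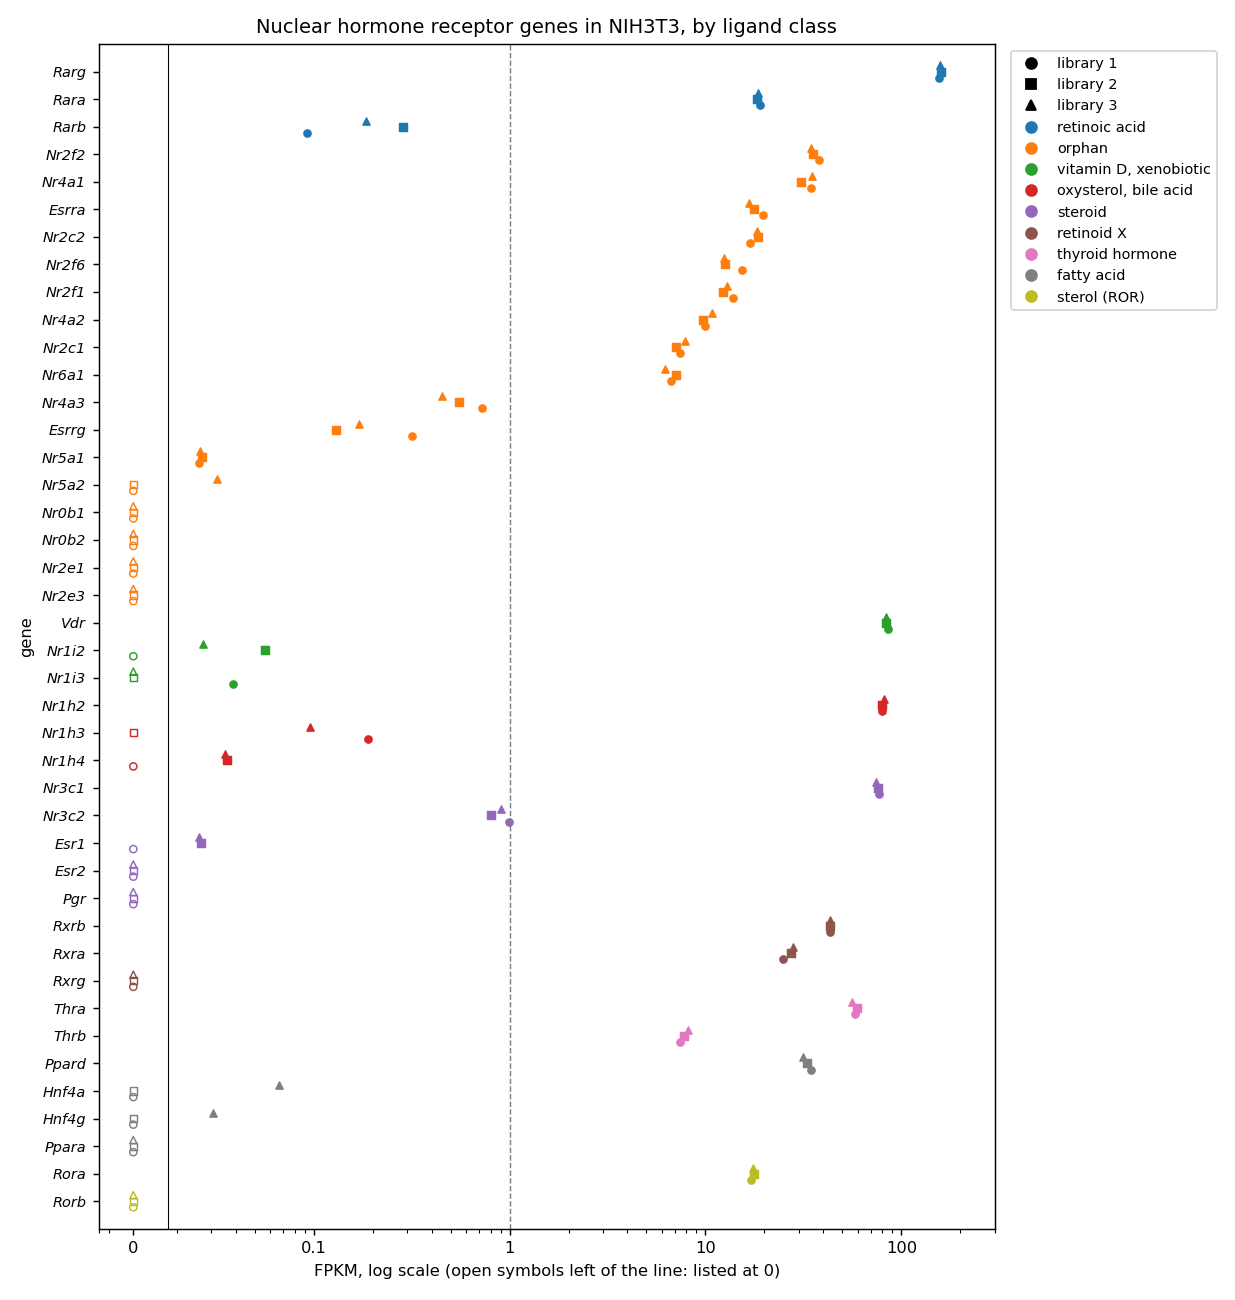
FPKM of the 42 receptor genes in each of the 3 libraries on a log scale, grouped by ligand class (colour). Symbols mark the libraries, the dashed line marks 1 FPKM, and open symbols left of the solid line mark genes listed at 0. A total of 20 genes lie between 6.22 and 159.9 FPKM in every library, and the others lie below 1 FPKM.

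Retinoid X receptors (RXR) are the shared partners of the heterodimeric receptors and were therefore examined first. Rxrb (ENSMUSG00000039656, plus strand of chromosome 17 from 34031812 to 34038399 in GENCODE M21 on GRCm38) had 43.2, 43.1 and 43.3 FPKM in libraries 1, 2 and 3. Rxra (ENSMUSG00000015846, plus strand of chromosome 2 from 27676440 to 27762957) had 24.9, 27.3 and 28.1 FPKM. The values of the pair did not overlap, and Rxrb was higher in each library, by 1.62-fold ± 0.104 (SD, n = 3), a log2 ratio of 0.69. Without division by gene length the log2 ratio was 0.06, since Rxrb rested on 894, 864 and 889 fragments and Rxra on 799, 849 and 896, so the order of the pair rests on the gene lengths. For the FPKM ratio, p was 0.25 by exact permutation of signs (two-sided), the smallest value possible with 3 libraries. Rxrg, whose known sites of expression include skeletal muscle, was listed at 0 in every library. A count of 0 allows up to 3 fragments, or 0.112 to 0.116 FPKM, and Rxrb was at least 371.6-fold higher than that floor. Rxrb held 61.8% ± 1.49 (SD, n = 3) of the RXR FPKM and Rxra held the rest.

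The promoters of these paralogs differ in their content of CpG, the dinucleotide that is concentrated in the CpG islands of many broadly expressed genes. The stretches below are the 120 bases just upstream of the most upstream RefSeq start (GRCm38.p6), 5′ to 3′ on the gene's strand. They are shown because the same subfamily holds detected and undetected genes, and CpG is in capitals. The Rxrb stretch covers chr17:34031692-34031811, that of Rxra chr2:27677081-27677200 and that of Rxrg chr1:167598242-167598361, all on the plus strand.
Rxrb: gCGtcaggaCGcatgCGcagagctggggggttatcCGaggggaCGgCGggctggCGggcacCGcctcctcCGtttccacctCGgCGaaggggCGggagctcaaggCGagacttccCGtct
Rxra: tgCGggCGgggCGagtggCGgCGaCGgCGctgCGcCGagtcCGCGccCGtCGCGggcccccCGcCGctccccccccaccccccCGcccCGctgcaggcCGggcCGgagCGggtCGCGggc
Rxrg: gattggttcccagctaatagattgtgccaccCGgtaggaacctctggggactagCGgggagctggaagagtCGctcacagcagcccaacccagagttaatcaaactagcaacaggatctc
These stretches hold 14 CpG in Rxrb, 23 in Rxra and 3 in Rxrg. The peroxisome proliferator-activated receptors (PPAR) also hold a detected and an undetected gene, but with like CpG counts. The stretch of Ppard covers chr17:28232634-28232753 and that of Ppara chr15:85735656-85735775, both on the plus strand.
Ppard: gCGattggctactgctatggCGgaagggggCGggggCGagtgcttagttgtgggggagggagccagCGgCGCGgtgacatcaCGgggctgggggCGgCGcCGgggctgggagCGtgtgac
Ppara: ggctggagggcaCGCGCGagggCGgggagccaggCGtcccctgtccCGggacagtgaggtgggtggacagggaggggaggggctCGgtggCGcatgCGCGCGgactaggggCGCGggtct
Here the detected Ppard and the undetected Ppara hold 12 and 13 CpG.

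Over the whole family, 38 of the 42 genes matched a RefSeq promoter of 300 bases, 250 before and 50 after the start. Those without a match were Thra, Nr3c1, Hnf4g and Nr5a1. The 18 detected genes had a median of 26 CpG per window, with a range from 2 to 55, and the 20 genes under 1 FPKM had a median of 10.5, with a range from 2 to 30. Windows with at least 20 CpG, a limit chosen after the values were seen, made up 72.2% of the detected genes and 15% of the others. Over 16580 protein-coding genes the corresponding shares were 58.0% and 15.04%, so a like split was present in protein-coding genes as a whole. Below 1 FPKM, the genes with at least 20 CpG were Nr4a3, Ppara and Rorb. Above 1 FPKM, 5 genes had fewer than 20 CpG, namely Rarg, Vdr, Nr1h2, Nr2f2 and Nr6a1, and the first 3 of them were the highest in the family. CpG count therefore did not order the levels among detected genes. These counts describe the sequence and no test was made.

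**Figure D2:**
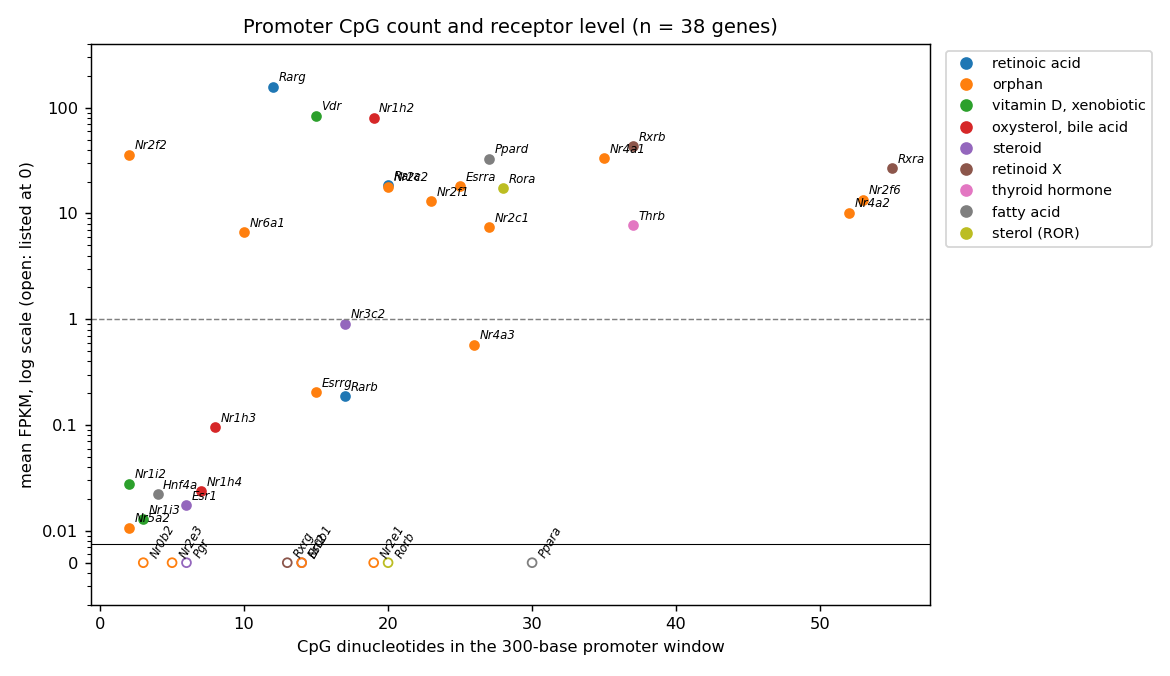
Mean FPKM on a log scale against the number of CpG dinucleotides in the 300-base promoter window, for 38 receptor genes coloured by ligand class. Open symbols below the solid line are genes listed at 0, and the dashed line marks 1 FPKM. Windows with more than 30 CpG belong to detected genes, while Rarg, with 12 CpG, is the highest gene.

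The retinoic acid receptors held the largest class share, 23.2% ± 0.389 (SD, n = 3) of the summed receptor FPKM. With the longest isoform as the gene length, they held 21.5% and the orphan receptors 24.1%, so the order of these classes depended on the length used. Rarg (ENSMUSG00000001288, minus strand of chromosome 15 from 102234938 to 102257517), which encodes RARγ, had 155.2, 159.9 and 157.0 FPKM. It was the highest receptor in every library and lay above 94.1% of the protein-coding genes past the limit of 1 FPKM. Rara, which encodes RARα, had 18.9, 18.4 and 18.5 FPKM. Rarg exceeded Rara by 8.46-fold ± 0.236 (SD, n = 3), a log2 ratio of 3.08 that became 2.31 with the longest isoform and 2.12 without division by length. Rarb, which is itself a well-known target gene of retinoic acid, had 2, 6 and 4 fragments, or 0.0921, 0.285 and 0.186 FPKM. The exact Clopper-Pearson 95% intervals of these values, which cover counting error only, overlapped and reached up to 0.621 FPKM in library 2. About 34.1% of the annotated exon bases of Rarb overlap Top2b on the other strand, a gene with 101.8 FPKM. Use of strand in the counting is not given in the sources used here, and the part of this overlap in the Rarb value was not tested.

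Vitamin D, oxysterol and fatty acid receptors each showed 1 detected gene per class. Vdr (ENSMUSG00000022479, minus strand of chromosome 15 from 97854425 to 97910630), which encodes the receptor for the active form of vitamin D, had 85.0, 83.8 and 83.1 FPKM. Its relatives of the NR1I subfamily sense xenobiotics in liver and gut and were near 0. Nr1i2 (PXR) had 0, 2 and 1 fragments, and Nr1i3 (CAR) had 1, 0 and 0 fragments, although 74.9% of the exon bases of Nr1i3 overlap Tomm40l, which had 3.17 FPKM. Vdr held 11.0% ± 0.0547 (SD, n = 3) of the receptor FPKM together with this pair, and 6.78% with the longest isoform as the gene length.

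Among the sterol sensors, Nr1h2 (ENSMUSG00000060601, minus strand of chromosome 7 from 44549616 to 44553951), which encodes the broadly expressed LXRβ, had 79.7, 79.4 and 81.4 FPKM. Nr1h3, which encodes LXRα of liver, fat and macrophages, had 4, 0 and 2 fragments, at most 0.189 FPKM. The bile acid receptor Nr1h4 (FXR) had 0, 1 and 1 fragments. LXRβ therefore accounted for nearly all oxysterol receptor FPKM in each library.

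Ppard, which encodes PPARδ, had 34.7, 32.9 and 31.4 FPKM, and Ppara, a regulator of fatty acid oxidation in liver, was listed at 0. Against a floor of 3 fragments, Ppard was at least 225.2-fold higher than Ppara. The liver and gut factors Hnf4a and Hnf4g, whose pocket holds a fatty acid, were at 0 in libraries 1 and 2 and had 2 and 1 fragments in library 3. Pparg, the adipogenic PPAR, is not one of the 42 genes and had 1 fragment over all libraries, so PPARδ was the PPAR detected.

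Both thyroid hormone receptors were detected. Thra (ENSMUSG00000058756, plus strand of chromosome 11 from 98740638 to 98769006) had 58.0, 59.3 and 56.2 FPKM, and Thrb had 7.38, 7.76 and 8.11 FPKM. Thra was 7.48-fold ± 0.483 (SD, n = 3) higher and made up 88.2% ± 0.691 of their sum. The log2 ratio of 2.90 became 1.94 without division by length. The 3′ end of Thra overlaps Nr1d1, the clock gene for REV-ERBα, on the opposite strand over 263 exon bases, or 5.70% of the exon bases of Thra. Nr1d1 had 34.2, 36.2 and 35.1 FPKM, and Thra lay 1.65-fold ± 0.0464 (SD, n = 3) above it. The part of the overlap in either value was not tested.

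Steroid receptors were represented almost only by the glucocorticoid receptor. Nr3c1, which encodes it, had 77.3, 76.2 and 74.7 FPKM and rested on 2817 to 2955 fragments per library, the most of any receptor. Nr3c2, which encodes the mineralocorticoid receptor, rested on 41, 32 and 37 fragments. Nr3c1 exceeded Nr3c2 by 84.7-fold ± 8.85 (SD, n = 3). The progesterone receptor gene Pgr and the oestrogen receptor gene Esr2 were listed at 0, and Esr1 had 0, 1 and 1 fragments. For Pgr, 3 fragments would be at most 0.0508 FPKM, and Nr3c1 was at least 1499-fold higher than that floor. The steroid class held 10.1% ± 0.116 (SD, n = 3) of the receptor FPKM, and 16.9% of the receptor fragments when these were not divided by length.

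**Figure D3:**
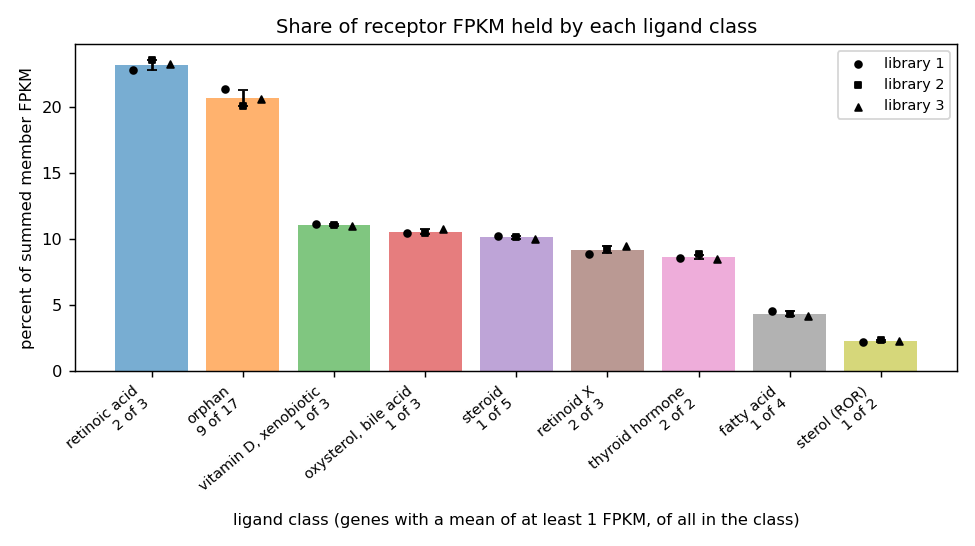
Percentage of the summed FPKM of the 42 receptor genes held by each ligand class. Bars and error bars give the mean and SD of 3 libraries, symbols give each library, and the labels give how many genes of each class had a mean of at least 1 FPKM. The retinoic acid class held 23.2% with 2 of 3 genes, and the orphan class held 20.6% with 9 of 17 genes.

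Of the orphan receptors, 9 of 17 genes were detected, near the 49.3% of protein-coding genes, and they held 20.6% ± 0.627 (SD, n = 3) of the receptor FPKM. Without receptors whose exons overlap another gene by any number of bases, the orphan share was 9.99%. That setting drops whole genes, also where the overlap is small, as in Nr2f1, with 2.42% of its exon bases. The COUP-TF subfamily had all of its genes above the limit. Nr2f2, which encodes COUP-TFII, a regulator of mesenchymal and venous development, had 37.997, 35.5 and 34.6 FPKM. Nr2f6 had 15.3, 12.7 and 12.4 FPKM, and Nr2f1 had 13.9, 12.3 and 12.9 FPKM. Nr2f2 lay above Nr2f6 by 2.69-fold ± 0.179 (SD, n = 3) and above Nr2f1 by 2.77-fold ± 0.0989. Without division by length, the log2 ratio of Nr2f2 to Nr2f6 rose from 1.43 to 2.71. The values of Nr2f6 and Nr2f1 overlapped, with a log2 ratio of 0.04 ± 0.10 (SD, n = 3) whose sign differed between libraries, and no order could be given. Of the exon bases of Nr2f6, 54.4% overlap Ocel1 on the other strand, which had 3.65 FPKM.

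The NR4A genes are immediate early genes that are induced by growth factors and stress and act without a ligand pocket. Nr4a1 (NUR77) had 34.5, 30.8 and 35.1 FPKM, Nr4a2 (NURR1) had 9.89, 9.75 and 10.8 FPKM, and Nr4a3 (NOR1) had 0.727, 0.552 and 0.453 FPKM. The levels of the 3 genes did not overlap. Nr4a1 exceeded Nr4a2 by 3.30-fold ± 0.167 (SD, n = 3) and Nr4a3 by 60.2-fold ± 15.5, where the large SD goes with 34, 25 and 21 fragments of Nr4a3. Without division by length, the log2 ratio of Nr4a1 to Nr4a3 was 4.83 in place of 5.88.

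Of the oestrogen-related receptors, which regulate genes of energy metabolism and bind no oestrogen, Esrra had 19.6, 17.8 and 16.7 FPKM. Esrrg had 15, 6 and 8 fragments, at most 0.316 FPKM. The testicular receptors were both detected, with 16.9, 18.7 and 18.4 FPKM for Nr2c2 (TR4) and 7.40, 7.11 and 7.88 FPKM for Nr2c1 (TR2), a ratio of 2.41 ± 0.181 (SD, n = 3). With the longest isoform the log2 ratio of this pair fell from 1.27 to 0.12, so the size of their difference rests on the gene lengths. Of the exon bases of Nr2c2, 30.7% overlap Mrps25 on the other strand, which had 4.70 FPKM. Nr6a1, the germ cell nuclear factor, was the lowest detected receptor. Rora, which belongs to the sterol-binding ROR genes, had 17.0, 17.7 and 17.4 FPKM, and Rorb was listed at 0, with Rora at least 419.2-fold higher than a floor of 3 fragments.

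The remaining orphan receptors had at most 1 fragment in any library. The steroidogenic factor Nr5a1 had 1 fragment per library and Nr5a2 (LRH-1) had 1 fragment, in library 3. Nr0b1 (DAX1) and Nr0b2 (SHP), which lack a DNA-binding domain, were listed at 0, as were the neural stem cell factor Nr2e1 and the photoreceptor factor Nr2e3. In all, 9 of the 42 receptor genes (21.4%) were at 0 in every library, beside 28.1% of protein-coding genes. For these genes a floor of 3 fragments lies between 0.0406 and 0.190 FPKM, so expression below it could not be told apart from none. A further 9 genes had 1 to 6 fragments over all libraries, with no single library above 4 fragments.

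Among the 20 detected genes in order of level, 12 of the 19 neighbouring pairs had values that did not overlap and the same order in each library. The first 7 places, Rarg, Vdr, Nr1h2, Nr3c1, Thra, Rxrb and Nr2f2, were ordered without overlap, though Vdr exceeded Nr1h2 by only 1.05-fold ± 0.0235 (SD, n = 3). Overlapping neighbours were Nr2f2 and Nr4a1, Nr4a1 and Ppard, Rara and Esrra, Esrra and Nr2c2, Nr2c2 and Rora, Nr2f6 and Nr2f1, and Thrb and Nr2c1. Within subfamilies, 11 pairs had at least 10 fragments per library in both genes. Exact permutation of the signs gave p = 0.25 for 10 of them, or 0.275 after Benjamini-Hochberg adjustment, and p = 0.75 for Nr2f6 and Nr2f1. With 3 libraries the test could not pass 0.05.

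These levels depend on the gene length that the authors used, which equals the mean length of the annotated isoforms. For Rarg this is 1118 nt, over 7 isoforms of 111 to 2953 nt. With the longest isoform in its place, Rarg fell to 59.6 FPKM and stayed first, whereas Vdr fell to 22.6 FPKM and moved from rank 2 to rank 6. Nr1h2 and Nr3c1 then followed Rarg, at 44.1 and 31.3 FPKM. Among the detected genes Rora had the largest fold change, to 4.45 FPKM, because its longest isoform of 10878 nt is 3.91 times the mean. Counted in fragments without division by length, Nr3c1 came first, with 201.5 CPM (counts scaled to the library total alone), and Rarg followed, with 175.9. The same 20 genes stayed above 1 FPKM with the longest isoform.

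**Figure D4:**
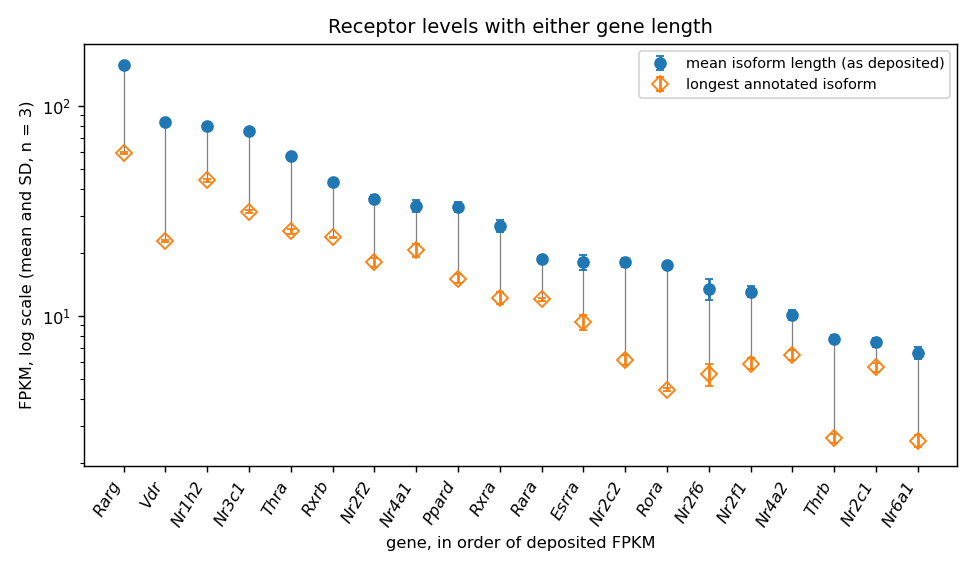
FPKM of the 20 detected receptor genes on a log scale, as deposited (filled circles) and with the longest annotated isoform in place of the mean isoform length (open diamonds). Points and error bars give the mean and SD of 3 libraries. Rarg stays highest with either length, while Vdr falls from 84.0 to 22.6 FPKM.

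The spread between the replicate libraries was compared with counting error by a chi-square test of the fragments of each gene, adjusted over 13632 genes with a mean of at least 10 fragments. Of all these genes 2.01% were called at an adjusted p of 0.05, and of the 22 receptors among them 0 were called. Without adjustment, 2 of the 22 receptors had a p under 0.05, beside 9.48% of all genes. These were Nr4a1, lowest in library 2, with a chi-square p of 0.030, and Rxra, lowest in library 1, with 0.033. The coefficient of variation over the libraries ran from 0.199% for Rxrb to 11.8% for Nr2f6, with a median of 5.00%, beside 4.35% for every listed gene past the limit of 1 FPKM. In Nr2f6, with 191, 153 and 154 fragments, counting error alone gives 7.80%. Of the 42 genes, 29 share no 75-nt word with an annotated transcript of another gene.

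Receptors act through coregulators, which remodel chromatin at bound genes. Corepressors, some of which hold unliganded receptors silent, were detected in 9 of 9 genes, and coactivators in 10 of 11. Among all protein-coding genes, 49.3% passed the same limit. Ncor1, which encodes the corepressor NCoR, was the highest, with 106.0, 110.7 and 111.1 FPKM. The lowest corepressor was Hr, at 4.75 FPKM. Among coactivators, the acetyltransferase gene Ep300 had 69.6 FPKM, the Mediator subunit Med1 49.7 FPKM and the p160 coactivator Ncoa2 48.6 FPKM. The other p160 genes, Ncoa3 and Ncoa1, had 27.3 and 19.7 FPKM. The lowest coactivator was Ppargc1a, encoding PGC-1α, at 0.602 FPKM, while its relative Ppargc1b had 3.57 FPKM.

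Chaperones that hold steroid receptors were detected in 8 of 8 genes, beside 49.3% of protein-coding genes. Hsp90ab1 led with 2176 FPKM and Dnajb1 was lowest with 24.3 FPKM. The immunophilin genes Fkbp4 and Fkbp5, which act in opposite directions on glucocorticoid receptor folding and transport, had 118.8 and 38.6 FPKM. Fkbp5 is also a target gene of the glucocorticoid receptor. Hspa8 and Hsp90aa1 were lowest in library 3 and were called in the test of spread, with adjusted chi-square p-values of 5.9e-30 and 6.8e-08.

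Genes that supply, carry or remove ligands were detected in 8 of 22 cases, or 36.4%, beside 49.3% of protein-coding genes. The highest was the fatty acid carrier Fabp5, with 24.2 FPKM, followed by Hsd11b1, whose enzyme regenerates active glucocorticoid, with 15.8 FPKM. Cyp26b1, which degrades retinoic acid and is induced by it, had 12.2, 13.1 and 12.8 FPKM. Rdh10, which oxidises retinol to retinal, had 11.4 FPKM, but of the enzymes that make retinoic acid from retinal Aldh1a2 was listed at 0 and Aldh1a1 and Aldh1a3 had 0.651 and 0.111 FPKM. Fabp4 had 7.69 FPKM. Besides Aldh1a2, the genes at 0 included Crabp1, Dio3, Ch25h and Cyp24a1, the vitamin D catabolic enzyme that is a strong target of the vitamin D receptor.

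Genes known as receptor targets were detected in 14 of 20, or 70%, beside 49.3% of protein-coding genes. Plin2, a target of PPARs, was the highest, with 307.2 FPKM, followed by the glucocorticoid targets Dusp1 and Klf9 at 110.3 and 102.0 FPKM and by Per1 at 48.4 FPKM. Srebf1, a target of LXR among other inputs, had 48.0 FPKM, whereas the LXR target genes Abca1 and Abcg1 had 2.50 and 0.203 FPKM. The glucocorticoid target Tsc22d3, which encodes GILZ, had 47.0 FPKM. The lowest gene of the list was Zbtb16, at 0.0121 FPKM. These genes answer to many inputs, and their levels are given as values only, since no ligand was varied.

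**Figure D5:**
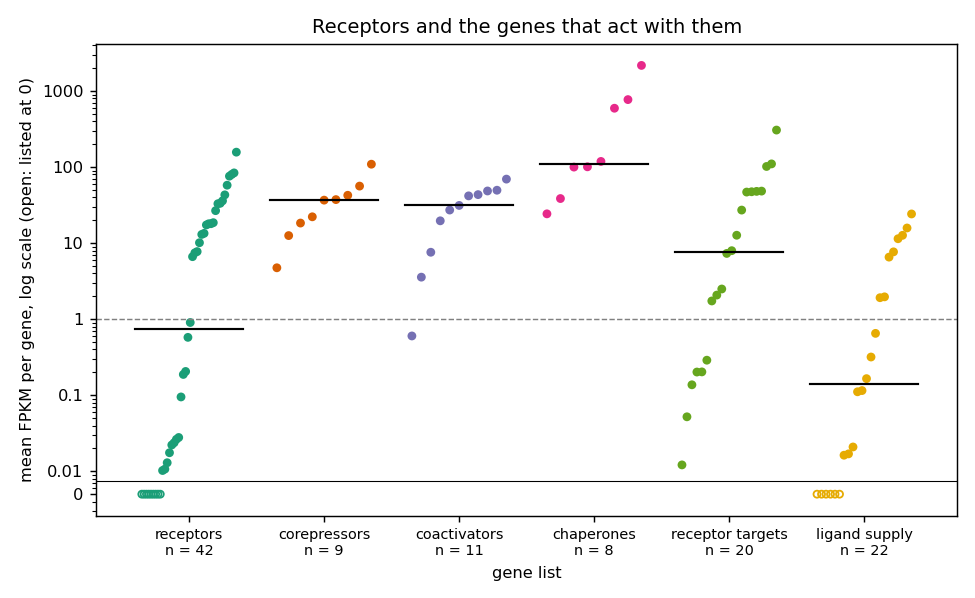
Mean FPKM over 3 libraries on a log scale for each gene of the receptor family and of 5 lists of genes that act with receptors. Black lines mark the median of each list, open symbols are genes listed at 0, and the dashed line marks 1 FPKM. The medians were 0.741 FPKM for receptors, 36.8 for corepressors, 31.4 for coactivators, 109.9 for chaperones, 7.65 for receptor targets and 0.140 for ligand supply.

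Receptor genes outside the 42 were examined in brief. The clock regulators Nr1d2 and Nr1d1 had 51.7 and 35.2 FPKM, and Nr1h5, which encodes a mouse receptor related to FXR, had 37.1, 37.4 and 35.4 FPKM. Nr1h5 therefore lay far above its relative Nr1h4 in each library. Esrrb, a relative of Esrra, was listed at 0.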

How the data were processed

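UMI-RNAseq was measured in 3 libraries of NIH3T3 cells, named by replicate number. The authors identified UMIs with UMI-tools (1.0.0), mapped reads with HISAT2 (2.0.4 in the submitters' processing notes), removed duplicates by UMI and position, counted reads per gene with HTSeq (0.6.1) and deposited FPKM values per library. Both deposited tables hold identical values, and 0 value columns were left unused. The genome build and annotation are not given in the sources used here. FPKM values are not counts, so fragments were recovered from them. Library totals came from genes with 1 isoform, and fragments were FPKM times the rounded mean GENCODE M21 isoform length times the total, accepted within 0.001 of a whole number (99.1% of 26193 genes with a fragment, and 42 of 42 receptors). The script was tested on simulated data. No pseudocount or filter was applied to receptor levels. Fragments entered a chi-square test with 2 degrees of freedom, with Benjamini-Hochberg adjustment over genes with a mean of at least 10 fragments. Ratios within subfamilies were tested by exact sign-flip permutation. Intervals and floors (3 fragments) cover counting error only. Promoter sequences came from RefSeq (GRCm38.p6). Python 3.11.15, numpy 2.4.6, pandas 2.3.3, scipy 1.17.1 and matplotlib 3.10.9 were used.

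All 42 receptors were named, with, from each other list, the highest and lowest gene, genes at 0 in every library and up to 4 more by level, and the genes that overlap a detected receptor. Ncoa1, Ncoa3, Ppargc1b, Aldh1a1, Aldh1a3, Abca1, Abcg1, Tsc22d3, Fkbp5, Top2b and Tomm40l fall outside that rule and were named after their values were seen. A few genes of these lists are counted but not reported here by name. The receptors and lists were chosen with earlier results of these data known. Alternatives were leaving out replicates, other scalings, limits, pseudocounts, gene lengths and filters. The CpG start choice and the order of receptors under other lengths were added after seeing the data.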

Additional observations from a re-analysis of the deposited data

How the results depend on the processing

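Of 155 values recomputed under alternatives, 124 held by a criterion that differed by kind. This was direction alone for ratios within subfamilies, 1 SD of the libraries for class shares and 1.5 times for counts. Many of these values could not fail. Leaving out 1 of 3 libraries moves a mean by less than 1 SD. A ratio with the same sign in every library keeps it without 1 library or with a pseudocount. The 124 is therefore no measure of stability. With another gene length or without overlapping receptors, only the fatty acid share held, and only with the longest isoform (4.51% against 4.34%). The number of detected receptors stayed within that limit under each alternative. The permutation tests of ratios bear on no stability, since their smallest possible p is 0.25.

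Ratios that kept their direction still changed in size with gene length, as given beside some of them. Without division by length, the log2 ratio of Nr2f2 to Nr2f1 rose from 1.47 to 2.01. That of Nr4a1 to Nr4a2 fell from 1.72 to 1.17, that of Nr4a2 to Nr4a3 from 4.16 to 3.66 and that of Nr3c1 to Nr3c2 from 6.40 to 6.30. With a pseudocount of 1 FPKM, the log2 ratio fell from 6.40 to 5.34 for Nr3c1 to Nr3c2, from 5.88 to 4.45 for Nr4a1 to Nr4a3 and from 4.16 to 2.82 for Nr4a2 to Nr4a3.

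The class shares moved with the gene length. With the longest isoform they were 24.1% for orphan, 21.5% for retinoic acid, 13.2% for oxysterol and bile acid, 10.7% for retinoid X, 9.51% for steroid, 8.34% for thyroid hormone, 6.78% for vitamin D and xenobiotic and 1.33% for sterol (ROR) receptors. Without division by length they were 24.3%, 17.99%, 7.33%, 10.1%, 16.9%, 6.48%, 8.20% and 4.01% in the same order, and 4.65% for fatty acid receptors. Receptors whose exons overlap another gene by any number of bases were also left out, which removes 7 detected genes whole. The overlap covered 0.627% of the exon bases in Rora, 5.70% in Thra and 54.4% in Nr2f6. The shares were then 9.99%, 30.1%, 13.7%, 11.9%, 13.0%, 1.32%, 14.3% and 0% in the same order, and 5.64% for fatty acid receptors.

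The log2 ratio of Nr2f6 to Nr2f1 reversed from 0.04 to -0.0073 without replicate 1 (range -0.0073 to 0.0887 when each replicate was left out), to -0.17 with the longest isoform and to -0.71 without division by length. Leaving out each replicate in turn gave 107 to 188 genes called in the test of spread, against 274 with all libraries, with the lowest number without library 1, and 0 receptors were called in any setting. With the start of the most CpG in place of the most upstream one, the median of receptors under 1 FPKM was 12.5 CpG. No paired analysis was possible because all samples form a single group.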
